A study of Mus musculus with 6 samples.

Results

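The keratins of mouse aortas were examined here as 1 gene family. Every probe set of the array whose annotated mouse symbol is Krt followed by a number was taken, while keratin-associated proteins (Krtap) and Krtdap were left out. This rule, which uses no measured value, found 61 of 45101 probe sets, and they stood for 48 genes. RefSeq lists 53 protein-coding mouse keratins of this kind. The aortas came from 3 groups of mice: ApoE-/- mice given vitamin E (tocopherol acetate, 2000 IU/kg diet) for 7 months, untreated ApoE-/- mice, and B6 (C57BL/6J) mice with intact Apoe. ApoE-/- mice lack apolipoprotein E in every tissue, become hypercholesterolemic and develop atherosclerotic plaques, and they were kept on the B6 background. All groups ate the same chow (7% fat, 0.15% cholesterol), entered the study at 4-6 weeks and were 32-34 weeks old at dissection. Each group had 2 arrays, each with RNA pooled from 3 whole aortas, and no cells were sorted. P-values therefore measure the spread between pools, and fewer cells of a type and less RNA per cell cannot be told apart.

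Keratins form the intermediate filaments of epithelial cells. A filament needs a type I and a type II keratin in pairs, and each kind of epithelium is known by its own pairs. Krt8 and Krt18 belong to simple epithelium, often with Krt7 and Krt19. Krt5 with Krt14 or Krt15 belongs to the basal layer of stratified epithelium, Krt1 and Krt10 to the cornifying layers of skin above it, and Krt4 and Krt13 to the upper layers of oesophagus and other moist linings. Further keratins build hair, nail and the inner root sheath. The vessel wall proper, endothelium and smooth muscle, relies on vimentin and desmin instead.

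The type I genes other than Krt18 lie on chromosome 11, and Krt18 lies on chromosome 15 with the type II genes. Signal intensity is a linear value per probe set that the authors scaled array by array. Intensities under 20 were set to 20, and a probe set was tested where a group averaged at least 100. Of the 61 keratin probe sets, 22 passed this limit and stood for 16 genes. Each difference is a log2 fold change from limma fitted to all 6 arrays, and a probe set is called at an adjusted p under 0.05 over all 17909 probe sets tested. Intensities of different probe sets are not set against each other. At least 1 probe set each of Krt4, Krt8, Krt13, Krt14 and Krt42 has the suffix x in the array's naming, which marks probes that may also bind related sequences.

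The sequences before the start sites of 4 keratins are shown because these genes stand for the patterns described below: Krt13 and Krt78 for the oesophageal, Krt5 for the basal and Krt18 for the simple keratins. They are the 200 bases before the transcript start on the gene's own strand, from RefSeq on GRCm38.p6, and the most upstream of 2 listed starts was taken for Krt13. Capitals mark the letters ATAAAA, which resemble a core promoter element. TGANTCA, the core letters of AP-1 sites, are in capitals as well. Either word was looked for on both strands, they do not overlap here, and they were chosen after these sequences were seen.
Krt13, chr11:100121567-100121766, minus strand: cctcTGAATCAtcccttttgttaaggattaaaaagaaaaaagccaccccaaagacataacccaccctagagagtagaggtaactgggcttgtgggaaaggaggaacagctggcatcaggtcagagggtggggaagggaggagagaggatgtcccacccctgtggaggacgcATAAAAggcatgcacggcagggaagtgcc
Krt78, chr15:101954288-101954487, minus strand: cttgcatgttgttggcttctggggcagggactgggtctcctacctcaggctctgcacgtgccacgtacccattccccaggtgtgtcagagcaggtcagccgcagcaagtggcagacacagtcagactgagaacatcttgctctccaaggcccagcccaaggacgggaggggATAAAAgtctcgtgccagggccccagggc
Krt5, chr15:101712906-101713105, minus strand: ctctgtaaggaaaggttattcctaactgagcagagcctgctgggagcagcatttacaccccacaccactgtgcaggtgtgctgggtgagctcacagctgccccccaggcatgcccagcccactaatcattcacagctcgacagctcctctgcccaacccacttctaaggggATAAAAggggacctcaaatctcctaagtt
Krt18, chr15:102028016-102028215, plus strand: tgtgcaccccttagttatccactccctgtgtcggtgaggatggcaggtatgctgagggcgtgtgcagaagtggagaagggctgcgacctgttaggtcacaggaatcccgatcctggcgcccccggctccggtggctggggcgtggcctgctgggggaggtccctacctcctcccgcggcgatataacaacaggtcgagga
ATAAAA began 29 bases before the start in Krt13, Krt78 and Krt5 alike, and it was not found in the window of Krt18. The same word was found in 13.5% of the 32851 promoters of the table and in 19 of the 36 keratin genes that the table holds (52.8%). For both words, each promoter was counted separately, whereas a keratin gene counted if any of its listed starts had the word. The shares are therefore of unlike units. TGANTCA was found in Krt13 only, 196 bases before the start, against 5.48% of all promoters and 1 of the 36 keratin genes. Matching letters are a description and not a binding site.

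The arrays were alike in overall intensity, with a mean of 305 to 319 and 35.8% to 37.3% of probe sets at 100 or more. Apoe had a signal intensity of 40.5 and 45.3 in vitamin E-treated ApoE-/-, 93.2 and 57.4 in untreated ApoE-/-, and 5209 and 5432 in B6 aortas. The 4 poly-A controls, bacterial transcripts added during labelling, had 0.302 to 0.453 times the B6 intensity in vitamin E-treated ApoE-/- samples and 0.243 to 0.382 times in untreated ones, so that a labelling batch and the genotype cannot be told apart. The titles of the vitamin E-treated arrays are written in another style than those of the untreated and B6 arrays. Whether all arrays were run together is not stated, so that vitamin E treatment and a set of arrays cannot be told apart either. The Gapdh 3' to 5' ratio was 1.15 and 1.24 in vitamin E-treated ApoE-/-, 1.03 and 1.06 in untreated ApoE-/-, and 1.35 and 1.34 in B6 samples. Smooth muscle genes, which mark the labelled tissue, were present, with summed intensities of 6 contractile genes of 16736 to 17703 in vitamin E-treated ApoE-/-, 18678 to 19469 in untreated ApoE-/-, and 19878 to 20593 in B6 aortas. The beta-actin 3' to 5' ratio had another order, with 1.639 and 1.642 in vitamin E-treated ApoE-/-, 1.78 and 1.88 in untreated ApoE-/-, and 2.01 and 2.06 in B6 samples. Genes of other tissues were present too, and their sums are given below.

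In vitamin E-treated compared with untreated ApoE-/- aortas, 17 of the 22 keratin probe sets were higher and 1, that of Krt19, was lower. Of all probe sets tested, 15.5% were called in this comparison, 8.52% as higher and 6.99% as lower. The keratins had a median log2 fold change of 0.78, and all probe sets tested had one of 0.0035. In untreated ApoE-/- compared with B6 aortas, 5 keratin probe sets were higher and 10 were lower, beside 21.7% and 19.1% of all probe sets and 40.8% called in either direction. The medians were -0.29 for keratins and 0.03 for all. In vitamin E-treated ApoE-/- compared with B6 aortas, 11 keratin probe sets were higher and 0 were lower, beside 21.9% and 19.2% of all probe sets and 41.1% called in either direction. The limma p before adjustment was under 0.05 for 13 higher and 0 lower keratin probe sets here. After median centring of each array, which moved the median of all probe sets by -0.15, the split was 8 higher and 2 lower. The medians were 0.29 for keratins and 0.02 for all. The 2 groups of arrays did not overlap for 20, 20 and 18 of the 22 keratin probe sets in these comparisons, beside 58.9%, 76.8% and 71.5% of all probe sets tested. Both comparisons that involve untreated ApoE-/- aortas use the same 2 arrays of that group, once as the baseline and once as the mutant. Leaving out the first or the second untreated array reduced the keratin calls between vitamin E-treated and untreated aortas to 10 and 11. Without the filter on low signals, when all 61 keratin probe sets were tested, 7, 10 and 8 were called in the 3 comparisons. The calls lost with vitamin E were those of Krt18, Krt19, Krt23, Krt80, all of Krt4 and Krt8 and 1 probe set each of Krt13 and Krt14 (adjusted p = 0.0507 to 0.221). In untreated ApoE-/- against B6 aortas, Krt10, Krt15, both probe sets of Krt4 and 1 each of Krt8 and Krt13 lost theirs (0.0532 to 0.26).

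**Figure D1:**
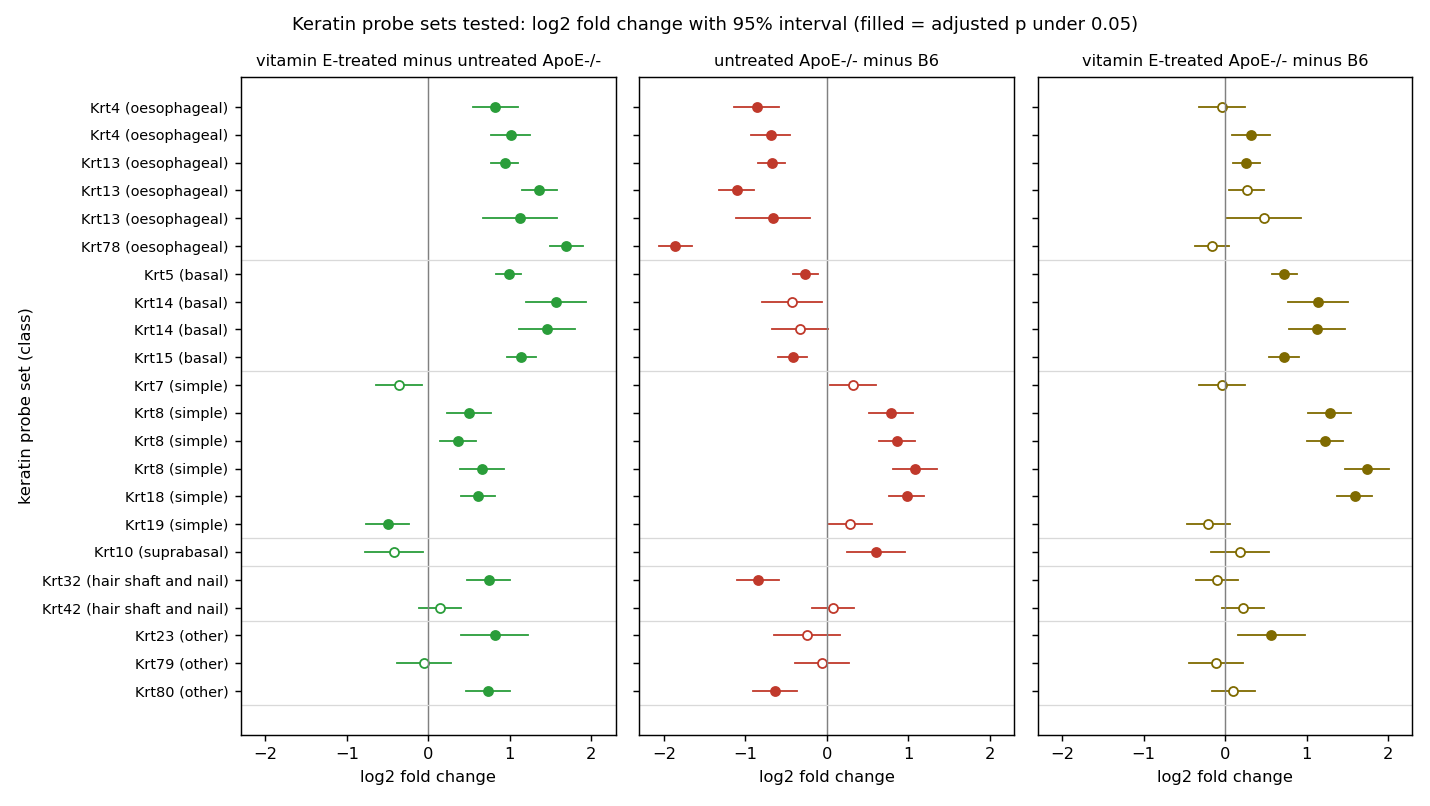
Log2 fold changes of the 22 keratin probe sets tested (points, 1 row per probe set, grouped by class) with 95% intervals from limma, in 3 comparisons. Filled points have an adjusted p under 0.05. In the left panel 17 filled points lie right of 0 and 1, Krt19, lies left of it, while the middle panel holds 10 filled points left and 5 right of 0.

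The oesophageal keratins were low in untreated ApoE-/- aortas and stood in vitamin E-treated aortas close to the B6 intensity. All 6 probe sets of Krt4, Krt13 and Krt78 were higher with vitamin E than without it, and all 6 were lower in untreated ApoE-/- aortas than in those of B6 mice. Without the filter on low signals, both Krt4 probe sets and the last of Krt13 lost their call in both comparisons (adjusted p = 0.0581 to 0.167 with vitamin E and 0.0532 to 0.26 against B6). Krt13, the type I partner, had signal intensities of 8274 and 7952 in vitamin E-treated ApoE-/-, 4199 and 4282 in untreated ApoE-/-, and 6545 and 7020 in B6 aortas. The 3 groups did not overlap. The log2 fold change of Krt13 was 0.94 (95% interval 0.77 to 1.10, adjusted p = 0.000319 from limma) between vitamin E-treated and untreated ApoE-/- aortas and -0.68 (-0.84 to -0.51, adjusted p = 0.000336) between untreated ApoE-/- and B6 aortas. Between vitamin E-treated ApoE-/- aortas and B6 aortas it was 0.26 (adjusted p = 0.0216). That call was lost without either untreated ApoE-/- or either B6 array (adjusted p = 0.067 to 0.178) and after median centring (adjusted p = 0.298). The other 2 Krt13 probe sets gave 1.37 and 1.13 for vitamin E-treated against untreated ApoE-/-, -1.10 and -0.66 for untreated ApoE-/- against B6, and no call for vitamin E-treated ApoE-/- aortas against B6. The last of them, with the lowest signal, lost its call with vitamin E without the first untreated array (adjusted p = 0.0696) and that against B6 without the first untreated or either B6 array (0.0581 to 0.183).

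Krt4, the type II partner of Krt13, had 11978 and 15510 in vitamin E-treated ApoE-/-, 7694 and 7728 in untreated ApoE-/-, and 14073 and 13934 in B6 aortas with its first probe set, the one with the highest mean signal. The vitamin E arrays lay on both sides of the B6 arrays and far above the untreated ones. Its log2 fold change was 0.82 (adjusted p = 0.00531) for vitamin E-treated against untreated ApoE-/- aortas, a call that ended when either untreated array was left out (adjusted p = 0.0547 and 0.0565), and -0.86 (adjusted p = 0.00129) for untreated ApoE-/- against B6 aortas. For vitamin E-treated ApoE-/- aortas against B6 it was -0.04 (-0.32 to 0.24, adjusted p = 0.817). Without the first vitamin E-treated array it was 0.15 and called (adjusted p = 0.0153), and without the second it was -0.23 and called as well (adjusted p = 0.00355), so its direction rests on single arrays. The second Krt4 probe set had 7421 and 9142 in vitamin E-treated ApoE-/-, 4109 and 4073 in untreated ApoE-/-, and 6694 and 6502 in B6 aortas. With it the difference between vitamin E-treated ApoE-/- aortas and B6 aortas was 0.32 and called (adjusted p = 0.0374), though not without any 1 of the untreated ApoE-/- or B6 arrays (0.0792 to 0.179) or after median centring (0.213), so the Krt4 probe sets disagree on this comparison.

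Krt78, a type II keratin of the same upper layers, had the largest log2 fold change of the 22 keratin probe sets between vitamin E-treated and untreated ApoE-/- aortas, and again between those untreated aortas and B6. Its signal intensities were 946 and 829 in vitamin E-treated ApoE-/-, 268 and 279 in untreated ApoE-/-, and 952 and 1029 in B6 aortas. Both untreated arrays were far below all others. That is a 3.24-fold higher intensity with vitamin E than without (log2 fold change 1.70, adjusted p = 6.8e-05) and a 3.62-fold lower intensity in untreated ApoE-/- aortas than in those of B6 mice (-1.86, adjusted p = 1.04e-05), while vitamin E-treated ApoE-/- aortas and B6 aortas differed by -0.16 (-0.36 to 0.04, adjusted p = 0.18). After median centring the last difference was called, at -0.31 (adjusted p = 0.0257). A figure of the study, though not its text, shows Krt78 among genes selected on these arrays, so its direction is not independent evidence. Krt76, known from the hard palate and gums, was not tested, with group means of at most 4.21.

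**Figure D2:**
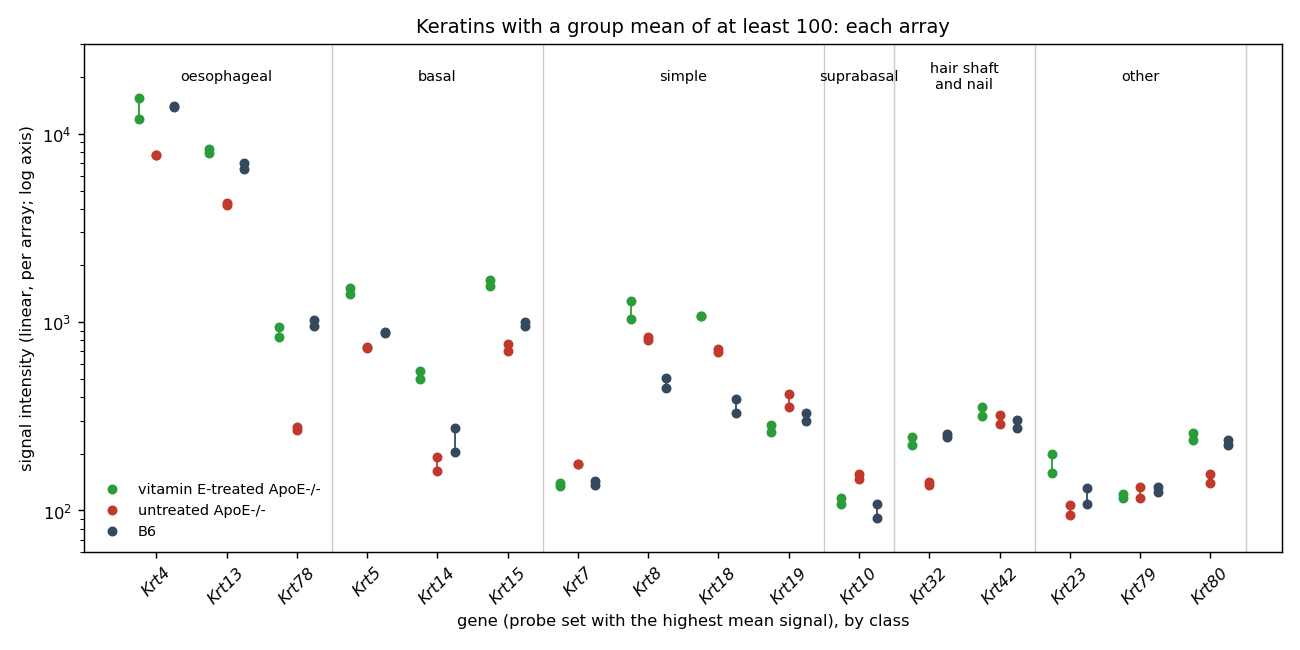
Signal intensity (log axis) of each array for the 16 keratin genes tested, with 1 probe set per gene and the 2 arrays of a group joined by a line. Krt4, Krt13 and Krt78 dip in untreated ApoE-/- aortas, Krt8 and Krt18 step down through vitamin E-treated ApoE-/-, untreated ApoE-/- and B6 aortas, and Krt7 and Krt19 are highest in untreated ApoE-/- aortas.

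The basal keratins were higher in vitamin E-treated ApoE-/- aortas than in both other groups. All 4 probe sets tested of Krt5, Krt14 and Krt15 were higher than in untreated ApoE-/- aortas, all 4 were higher than in B6 aortas, and those of Krt5 and Krt15 were lower in untreated ApoE-/- aortas than in those of B6 mice. Krt5, the type II keratin of the basal layer, had 1406 and 1517 in vitamin E-treated ApoE-/-, 740 and 732 in untreated ApoE-/-, and 880 and 886 in B6 aortas. For Krt5, unlike for Krt78, untreated ApoE-/- and B6 arrays lay close together and vitamin E-treated arrays stood apart. The log2 fold changes of Krt5 were 0.99 (0.84 to 1.14, adjusted p = 0.000198), -0.26 (-0.41 to -0.11, adjusted p = 0.0161) and 0.73 (0.57 to 0.88, adjusted p = 0.000206) for vitamin E-treated against untreated ApoE-/-, untreated ApoE-/- against B6, and vitamin E-treated ApoE-/- aortas against B6. The call of -0.26 was lost when any of the 4 arrays compared was left out (adjusted p = 0.0763 to 0.0921).

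Krt14, the usual type I partner of Krt5, had 497 and 548 in vitamin E-treated ApoE-/-, 193 and 161 in untreated ApoE-/-, and 206 and 274 in B6 aortas with its first probe set. It was 2.96-fold higher with vitamin E than without (log2 fold change 1.56, adjusted p = 0.00115) and 2.20-fold higher than in B6 aortas (1.14, adjusted p = 0.00139). Untreated ApoE-/- and B6 aortas differed by -0.43 without passing the test (adjusted p = 0.0663). This difference was called after quantile normalization (-0.48, adjusted p = 0.0483), after median centring (-0.49, 0.0308) and without the first B6 array (-0.63, 0.0354). The second probe set of Krt14 gave 1.46, -0.32 and 1.13 for the same comparisons in the order vitamin E-treated against untreated ApoE-/-, untreated ApoE-/- against B6, and vitamin E-treated ApoE-/- against B6, with the same calls. Krt15, a type I keratin of basal cells with little differentiation, had 1551 and 1679 in vitamin E-treated ApoE-/-, 699 and 767 in untreated ApoE-/-, and 1007 and 950 in B6 aortas. Its groups did not overlap either, with a log2 fold change of 1.14 (adjusted p = 0.000203) for vitamin E-treated against untreated ApoE-/-, -0.42 (adjusted p = 0.00458) for untreated ApoE-/- against B6 and 0.72 (adjusted p = 0.000431) for vitamin E-treated ApoE-/- aortas against B6.

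The simple keratins fell into unlike pairs. Krt8 and Krt18 were highest in vitamin E-treated ApoE-/- and lowest in B6 aortas, and no other keratin gene tested was called in that order. Krt18, the type I member, had 1084 and 1080 in vitamin E-treated ApoE-/-, 724 and 695 in untreated ApoE-/-, and 330 and 391 in B6 aortas. The log2 fold change of Krt18 was 0.61 (0.40 to 0.82, adjusted p = 0.00593) for vitamin E-treated against untreated ApoE-/- aortas, 0.98 (0.77 to 1.19, adjusted p = 0.000211) for untreated ApoE-/- against B6 and 1.59 (1.38 to 1.80, adjusted p = 3e-05) for vitamin E-treated ApoE-/- aortas against B6. Without the second untreated array the first of these was no longer called (adjusted p = 0.0547).

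Krt8, the type II member, had 1037 and 1290 in vitamin E-treated ApoE-/-, 803 and 836 in untreated ApoE-/-, and 508 and 444 in B6 aortas with its first probe set. The steps had log2 fold changes of 0.50 (adjusted p = 0.0278) for vitamin E-treated against untreated ApoE-/- and 0.79 (adjusted p = 0.0016) for untreated ApoE-/- against B6 aortas. The other 2 Krt8 probe sets gave 0.36 and 0.66 for the first and 0.86 and 1.08 for the second step, all called. For Krt8 the step between untreated ApoE-/- and B6 aortas kept its call without any single array, whereas the step with vitamin E lost it in the first probe set without the second vitamin E-treated array, either untreated or either B6 array (adjusted p = 0.0508 to 0.138). The other 2 probe sets of Krt8 lost this step without 5 and 2 of the 6 arrays, the untreated ones in both cases. Genes of thymic epithelium, which also carries Krt8 and Krt18, moved in the same order. The summed intensity of 6 such genes was 3267 to 3334 in vitamin E-treated ApoE-/-, 1891 to 2006 in untreated ApoE-/-, and 81.3 to 95.2 in B6 aortas. The 4 of them that were tested were higher with vitamin E than without, beside 8.52% of all probe sets. They were also called higher in untreated and in vitamin E-treated ApoE-/- than in B6 aortas, beside 21.7% and 21.9%. All 4 reached the limit for testing only through ApoE-/- groups, which favours a call as higher against B6. Prss16, a thymic protease, had 1010 and 1122 in vitamin E-treated ApoE-/-, 612 and 623 in untreated ApoE-/-, and 27.8 and 31.2 in B6 aortas. Foxn1, the regulator that defines this epithelium, was under the limit for testing, with 38.4 and 36.4 in vitamin E-treated ApoE-/-, 33.8 and 23.2 in untreated ApoE-/-, and 5.69 and 24.7 in B6 aortas. The part of these genes' source tissue in the Krt8 and Krt18 differences was not tested.

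Krt7 and Krt19, in contrast, were highest in untreated ApoE-/- aortas. Krt19, a small type I keratin of ducts and mesothelium, had 261 and 284 in vitamin E-treated ApoE-/-, 354 and 418 in untreated ApoE-/-, and 330.0 and 300.3 in B6 aortas. It was the only keratin called lower with vitamin E (log2 fold change -0.50, -0.76 to -0.23, adjusted p = 0.0271), and the call was lost without the first vitamin E-treated, either untreated or either B6 array (adjusted p = 0.052 to 0.169). Between untreated ApoE-/- and B6 aortas Krt19 differed by 0.29 without passing the test (adjusted p = 0.0771). Krt7, a type II keratin of simple epithelium, had 140 and 134 in vitamin E-treated ApoE-/-, 176 and 177 in untreated ApoE-/-, and 137 and 144 in B6 aortas. Untreated arrays did not overlap with the others for Krt7, but neither -0.36 (adjusted p = 0.087) for vitamin E-treated against untreated ApoE-/- nor 0.33 (adjusted p = 0.0653) for untreated ApoE-/- against B6 aortas passed the test. Both passed with moderation without a trend (adjusted p = 0.0416 and 0.0242), and the second also without the filter on low signals (0.0388). Of 5 mesothelial genes tested, 2 were lower with vitamin E than without, where 15.5% of all probe sets were called, and 2 were higher in untreated ApoE-/- aortas than in those of B6 mice, a share near the 40.8% called among all probe sets, with a summed intensity of 7 genes of 822 to 1031 in vitamin E-treated ApoE-/-, 1372 to 1773 in untreated ApoE-/-, and 1046 to 1090 in B6 aortas. Upk3b, a mesothelial surface protein, had 202 and 275 in vitamin E-treated ApoE-/-, 504 and 547 in untreated ApoE-/-, and 338 and 331 in B6 aortas. Lrrn4, also of mesothelium and named after its values were seen, had 90.4 and 85.6 in vitamin E-treated ApoE-/-, 189.6 and 186 in untreated ApoE-/-, and 234 and 212 in B6 aortas, with its highest values in B6. Among the 7, Wt1 and Bnc1 were too low to be tested. Lung and airway genes did not share 1 order. Of 8 tested, 6 were lower with vitamin E, where 6.99% of all probe sets were called lower. In untreated ApoE-/- against B6 aortas 1 was higher and 4 were lower (median -0.46), where 40.8% of all probe sets were called. The higher one was Scgb3a2, of the airway, with its highest values in untreated ApoE-/- aortas like Krt7 and Krt19. It was not called with vitamin E and had 6256 and 6715 in vitamin E-treated ApoE-/-, 6922 and 7078 in untreated ApoE-/-, and 4865 and 5277 in B6 aortas. Foxj1, named after its values were seen and too low to be tested, had its highest mean there as well. The sums of 9 genes, to which Scgb1a1 and Scgb3a2 gave most, were 16882 to 17220 in vitamin E-treated ApoE-/-, 20572 to 21122 in untreated ApoE-/-, and 21569 to 22591 in B6 aortas. Single genes differed far more than these sums. Sftpc, a lung surfactant protein, had 95.6 and 103 in vitamin E-treated ApoE-/-, 1402 and 1427 in untreated ApoE-/-, and 3074 and 3132 in B6 aortas. The part of either tissue in the Krt7 and Krt19 values was not tested. Krt20, of intestinal epithelium, had group means of at most 30.1 and was not tested.

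Most keratins of cornifying skin had low signals. Krt1, Krt2 and Krt77 had group means of at most 15.9 and were not tested. Krt10, the type I partner of Krt1 in skin, was the only suprabasal keratin tested, with 117 and 108 in vitamin E-treated ApoE-/-, 155 and 146 in untreated ApoE-/-, and 90.7 and 108 in B6 aortas. It was higher in untreated ApoE-/- aortas than in those of B6 mice (log2 fold change 0.60, 0.25 to 0.96, adjusted p = 0.0164), a call that was lost without either untreated or the first B6 array (adjusted p = 0.0631 to 0.0955). Vitamin E-treated and untreated ApoE-/- aortas differed by -0.42 without passing the test (adjusted p = 0.104). Like Krt7 and Krt19, Krt10 had its highest values in untreated ApoE-/- aortas, while its other groups lay in another order, with vitamin E-treated ApoE-/- aortas above B6 by 0.18 (adjusted p = 0.374).

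Among the other keratins, Krt32 and Krt80 resembled the oesophageal ones. Krt32, a type I keratin of the hair cuticle, had 222 and 245 in vitamin E-treated ApoE-/-, 142 and 137 in untreated ApoE-/-, and 244 and 256 in B6 aortas. It was higher with vitamin E than without (log2 fold change 0.74, adjusted p = 0.00611) and lower in untreated ApoE-/- aortas than in those of B6 mice (-0.84, adjusted p = 0.00106). Krt80, a type II keratin of many epithelia, had 237 and 257 in vitamin E-treated ApoE-/-, 140 and 156 in untreated ApoE-/-, and 223 and 236 in B6 aortas. The log2 fold changes of Krt80 were 0.74 (adjusted p = 0.00713, and 0.0552 without the first untreated array) for vitamin E-treated against untreated ApoE-/- and -0.64 (adjusted p = 0.00431) for untreated ApoE-/- against B6 aortas. Neither Krt32 nor Krt80 was called between vitamin E-treated ApoE-/- aortas and B6 aortas. Krt23, another type I keratin, had 199 and 158 in vitamin E-treated ApoE-/-, 94.9 and 108 in untreated ApoE-/-, and 109 and 132 in B6 aortas. It was called higher with vitamin E than without (0.81, adjusted p = 0.0223) and than in B6 aortas (0.57, adjusted p = 0.035). The first call ended without the first vitamin E-treated or either untreated array (adjusted p = 0.0635 to 0.122), and the second without any 1 of these or of the B6 arrays (0.0506 to 0.183). Krt42 and Krt79 were not called in any comparison. Krt42, a nail keratin, had between 273 and 356 on the 6 arrays with the probe set tested, and its second probe set stayed between 21.7 and 35.7. Krt79, a type II keratin of hair follicle and sebaceous ducts, had between 116 and 134.

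Most keratins of hair, nail and wound response were below the limit for testing. Of 14 hair shaft and nail probe sets, 12 were not tested, and none of the 8 probe sets of the inner root sheath and companion layer and none of the 7 of Krt6a, Krt6b, Krt16 and Krt17 was tested. In all, 23 of the 61 keratin probe sets had every group mean under 20. Just under the limit for testing were Krt81, Krt17 and Krt222, with highest group means of 92.0, 87.1 and 56.2, and just above it were Krt79, Krt10 and Krt7 with 129.6, 150.9 and 176. Krt17, a type I keratin of injured skin and its appendages, had 104.8 and 69.4 in vitamin E-treated ApoE-/-, 54.0 and 51.3 in untreated ApoE-/-, and 3.84 and 2.14 in B6 aortas. With this probe set its order was that of Krt8 and Krt18, and no fold is given because both B6 values were under 20. The other probe set of Krt17 alone was under 20 on every array. A further probe set annotated to both Krt17 and Krt14 was not counted as a keratin probe set of 1 gene. Krt81, a hair cortex keratin, had 64.4 and 94.5 in vitamin E-treated ApoE-/-, 69.6 and 114 in untreated ApoE-/-, and 42.1 and 44.9 in B6 aortas. Hair follicle genes were low as well, since only Lef1 of 5 on the array was tested and Hoxc13, a regulator of hair keratins, was under 20 on every array.

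**Figure D3:**
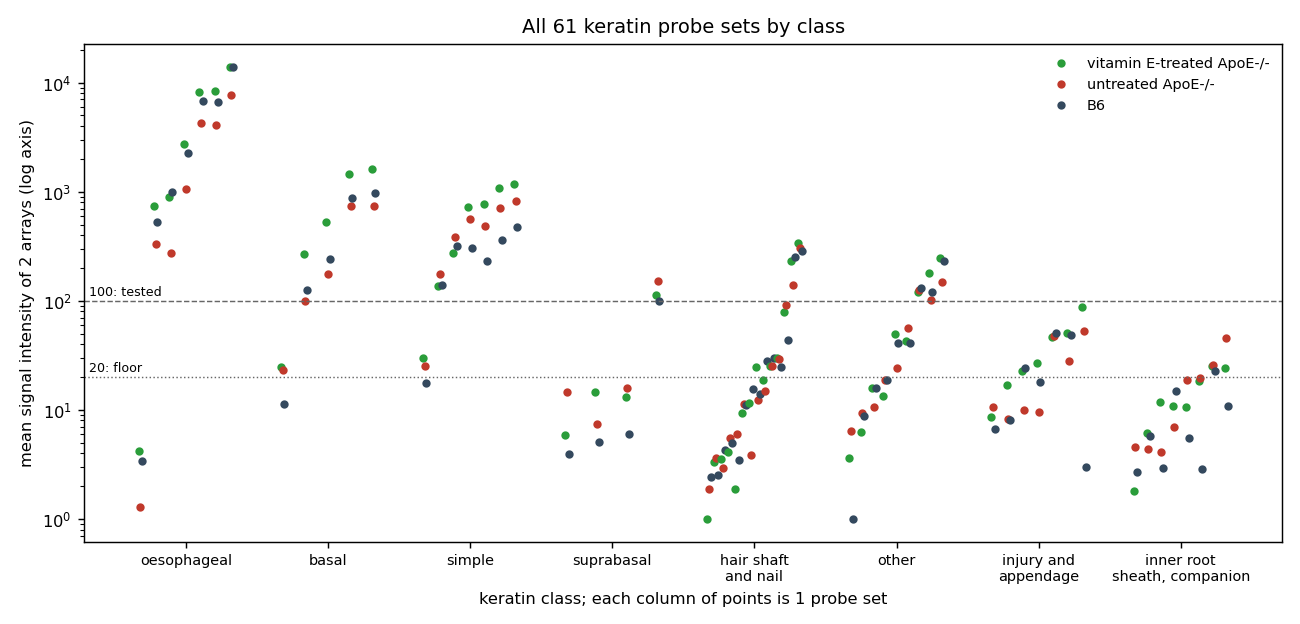
Mean signal intensity (log axis) of the 2 arrays of each group for all 61 keratin probe sets, 1 column of points per probe set and sorted within each class. The dashed line at 100 is the limit for testing and the dotted line at 20 the floor. Basal, oesophageal and simple keratins rise above 100, whereas 23 probe sets have every group mean under 20.

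Neighbours on a chromosome differed in direction in places. Krt13, Krt15 and Krt19 follow each other in the order of keratin genes on chromosome 11. Krt13 and Krt15 were called higher with vitamin E (0.94 and 1.14), while Krt19 next to them was called lower (-0.50). Krt4, Krt79, Krt78, Krt8 and Krt18 follow each other in the order of keratin genes on chromosome 15. Krt78 was lower in untreated ApoE-/- aortas than in those of B6 mice (-1.86), while Krt8 beside it was higher (0.79), and Krt79, between Krt4 and Krt78, was not called at all.

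**Figure D4:**
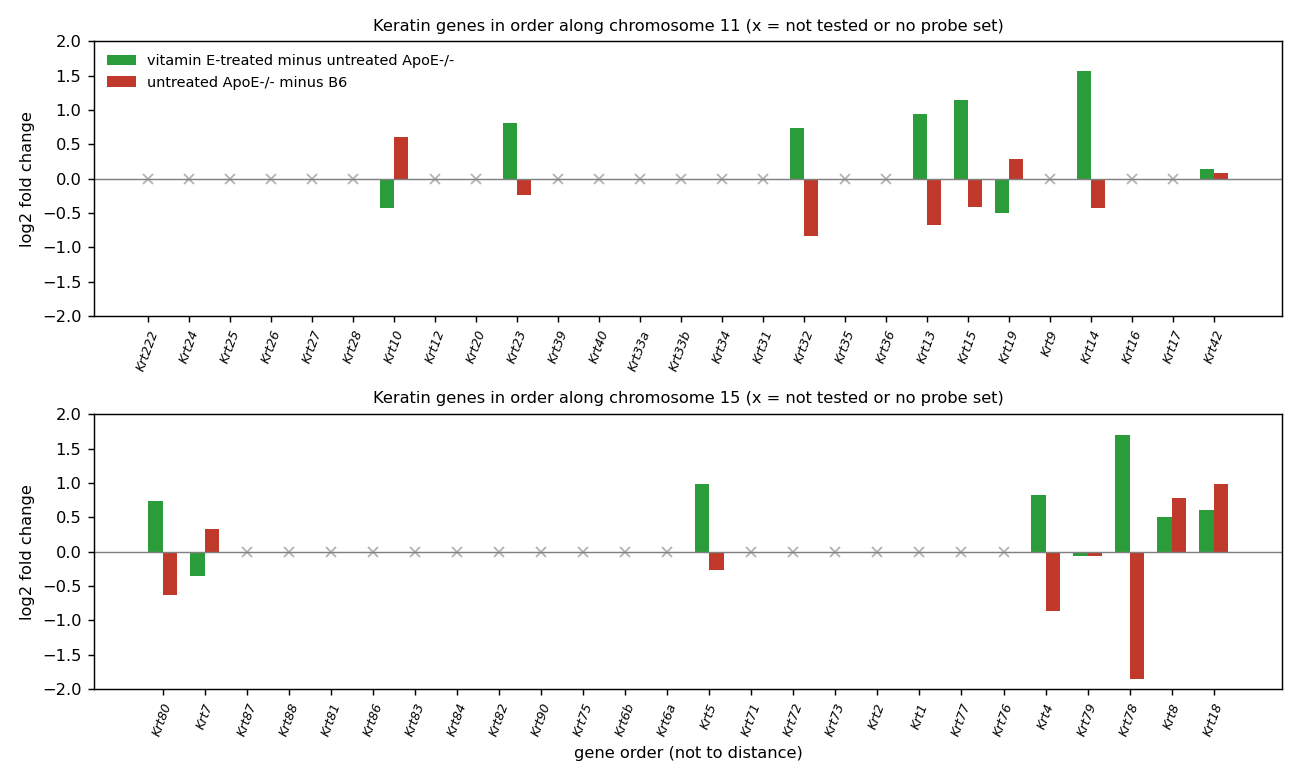
Log2 fold changes (bars) of keratin genes in their order along chromosome 11, with 27 genes, and chromosome 15, with 26 genes; distances are not to scale and crosses mark genes not tested or without a probe set. Krt13, Krt15 and Krt19 stand side by side with bars of opposite sign, and so do Krt78, Krt8 and Krt18 for untreated ApoE-/- minus B6.

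Proteins that go with keratins in stratified epithelium were compared through lists of genes. Of 13 tested genes of differentiated stratified epithelium other than keratins, such as cornified envelope precursors, 12 were higher with vitamin E than without and 1 was not called, with a median log2 fold change of 1.44. In untreated ApoE-/- against B6 aortas 10 of them were lower and 1 was higher (median -1.25). Of all probe sets tested, 15.5% were called with vitamin E and 40.8% in untreated ApoE-/- against B6 aortas. Krtdap, a secreted protein of differentiating keratinocytes, had 5806 and 5827 in vitamin E-treated ApoE-/-, 2522 and 2536 in untreated ApoE-/-, and 5164 and 5043 in B6 aortas. Csta1, a stefin-type protease inhibitor, had the largest fold with vitamin E of this list, with 396 and 284 in vitamin E-treated ApoE-/-, 86.2 and 88.3 in untreated ApoE-/-, and 267 and 296 in B6 aortas. The gene higher in untreated ApoE-/- aortas than in those of B6 mice was Endou, an endoribonuclease, with 1255 and 1311 in vitamin E-treated ApoE-/-, 675 and 634 in untreated ApoE-/-, and 202 and 214 in B6 aortas, and it was chosen for mention once its values had been seen. Several genes of this list, with Sprr3 named in the study's text and others in a figure of it, were selected on these arrays, so that their counts are not independent evidence of a direction. For Sprr3 the study also stained the protein. It reported less of it in untreated ApoE-/- aortas than in B6 and vitamin E-treated ones, which is a measure of protein and not of RNA.

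Linker and junction proteins, which tie keratin filaments to desmosomes and hemidesmosomes, did not move as 1 group. Of 12 tested, 7 were higher and 2 lower with vitamin E than without, with a median of 0.40, beside 15.5% of all probe sets called. In untreated ApoE-/- against B6 aortas 3 were higher and 6 lower (median -0.25), beside 40.8% of all probe sets called. Pkp1, the plakophilin of stratified epithelium, had 1112 and 1283 in vitamin E-treated ApoE-/-, 490 and 485 in untreated ApoE-/-, and 990 and 911 in B6 aortas, which is a log2 fold change of 1.29 (adjusted p = 0.000198) for vitamin E-treated against untreated aortas. Col17a1, a hemidesmosome collagen, had 148 and 141 in vitamin E-treated ApoE-/-, 54.4 and 51.0 in untreated ApoE-/-, and 90.6 and 68.7 in B6 aortas. It reached the limit for testing only through the vitamin E-treated group, which favours a call as higher. The 2 that were lower with vitamin E, named after their values were seen, were Dst, a large linker protein (-0.32), and Pkp2, a plakophilin of heart and simple epithelia. Pkp2 had 210 and 194 in vitamin E-treated ApoE-/-, 402.5 and 402.1 in untreated ApoE-/-, and 257 and 263 in B6 aortas (adjusted p = 0.000843 for vitamin E-treated against untreated). Dsp, desmoplakin, which anchors keratins and desmin alike, had a log2 fold change of 0.51 with vitamin E (adjusted p = 0.00254) and of -0.39 in untreated ApoE-/- against B6 aortas (adjusted p = 0.00234). Flg and Tchh, of cornified skin and hair, were under 20 on every array.

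Transcription factors of stratified epithelium were mostly measured close to the limit for testing. Of 11 tested, 6 were higher with vitamin E than without, beside 8.52% of all probe sets, and the other 5 were not called, with a median of 0.58. Among these 6, Pax9 and Grhl3 had a group mean of at least 100 only in vitamin E-treated aortas, and such a filter favours a call as higher. In untreated ApoE-/- against B6 aortas 2 of the 11 were higher and 2 were lower, with a median of -0.32. Those 4 of 11 are no larger a share than the 40.8% called among all probe sets. Trp63, the regulator of basal epithelial cells, had 163 and 181 in vitamin E-treated ApoE-/-, 99.8 and 102 in untreated ApoE-/-, and 99.3 and 108 in B6 aortas. Like Krt5 and Krt14 it stood apart in vitamin E-treated aortas, with 0.77 (adjusted p = 0.0124) against untreated ApoE-/- and 0.73 (adjusted p = 0.00559) against B6 aortas, and untreated ApoE-/- and B6 aortas differed by -0.04 (adjusted p = 0.839). Pitx1, a homeobox factor of oral and hindlimb tissue, had 158 and 173 in vitamin E-treated ApoE-/-, 54.1 and 61.3 in untreated ApoE-/-, and 156 and 82.8 in B6 aortas. Klf4, a factor of both epithelium and smooth muscle, had 1112 and 960 in vitamin E-treated ApoE-/-, 694 and 688 in untreated ApoE-/-, and 1389 and 1370 in B6 aortas.

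Among intermediate filaments of other cell types, vimentin and desmin were not called with vitamin E and synemin was higher. Of 11 tested, 3 were higher with vitamin E than without and 8 were not called, with a median of 0.28, beside 15.5% of all probe sets called. In untreated ApoE-/- against B6 aortas 1 was higher and 6 were lower (median -0.60), beside 40.8% of all probe sets called. The 6 were the neuronal Prph (-1.50), Nefl (-1.61), Nefm (-1.23) and Ina (-1.45), synemin and the nuclear lamin Lmna. The higher one was the nuclear lamin Lmnb1 (1.54). Vim, vimentin, had 5136 and 5354 in vitamin E-treated ApoE-/-, 6017 and 5770 in untreated ApoE-/-, and 6507 and 6332 in B6 aortas, with -0.17 (adjusted p = 0.132) for vitamin E-treated against untreated and -0.12 (adjusted p = 0.175) for untreated ApoE-/- against B6 aortas. Des, desmin, gave 0.21 (adjusted p = 0.0839) and 0.13 (adjusted p = 0.172) in the same comparisons. Synm, synemin of muscle, was the one with the largest fold with vitamin E (1.10, adjusted p = 0.000211) and had -1.29 (adjusted p = 2.72e-05) in untreated ApoE-/- against B6 aortas. Of 6 contractile smooth muscle genes 3 were lower with vitamin E and 3 were not called, and of 6 endothelial genes 1 was lower and 5 were not called. Of all probe sets tested, 15.5% were called with vitamin E, 6.99% as lower, and the endothelial count is near the first of these shares.

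Skeletal muscle genes, like the oesophageal keratins, were lowest in untreated ApoE-/- aortas. The summed intensity of 7 skeletal muscle genes was 39176 to 45898 in vitamin E-treated ApoE-/-, 19867 to 19907 in untreated ApoE-/-, and 37506 to 37786 in B6 aortas, and all 7 were higher with vitamin E and lower in untreated ApoE-/- aortas than in those of B6 mice. Of all probe sets tested, 8.52% were higher in the first and 19.1% lower in the second of these comparisons. Myh2, a fast skeletal muscle myosin, had 2105 and 1977 in vitamin E-treated ApoE-/-, 403 and 349 in untreated ApoE-/-, and 2153 and 2210 in B6 aortas. Skeletal muscle surrounds the mouse oesophagus, which lies beside the thoracic aorta. The part of this tissue in the keratin values was not tested. Liver genes also had their lowest sum in untreated ApoE-/- aortas, but B6 aortas stood far above both other groups. Their sums of 8 genes were 2218 to 2228 in vitamin E-treated ApoE-/-, 1168 to 1200 in untreated ApoE-/-, and 22199 to 22568 in B6 aortas, where Alb reached 6097 and 6107.

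**Figure D5:**
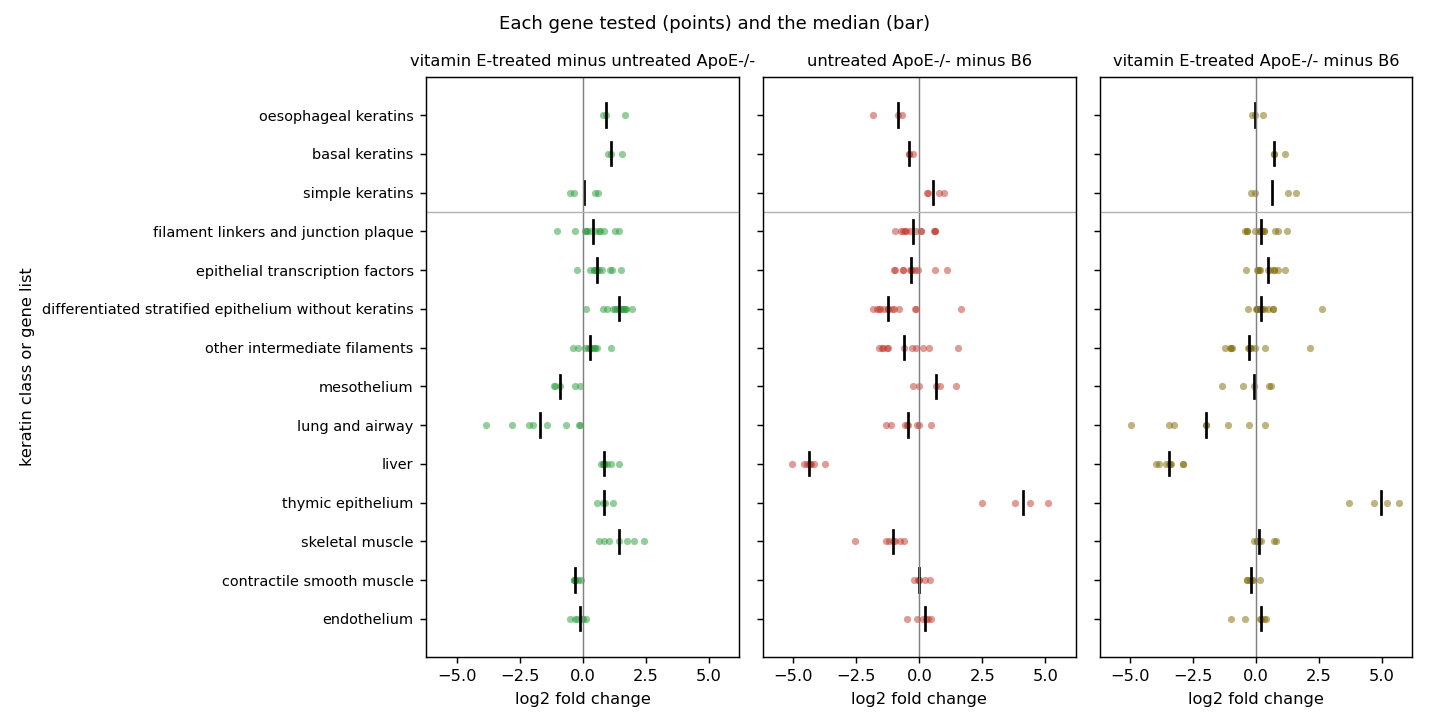
Log2 fold changes of each gene tested (points) and their median (bar) for 3 keratin classes, above the line, and for the lists of other genes, below it, in 3 comparisons. Oesophageal keratins, differentiated stratified epithelium and skeletal muscle lie right of 0 in the left panel and mostly left of 0 in the middle one, while thymic epithelium lies right of 0 in all 3 panels.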

How the data were processed

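RNA of mouse aortas had been hybridised to Affymetrix MG430 2.0 arrays. The authors computed signal intensities with GCOS, scaled to a target of 200, and deposited them on a linear scale. Present calls were not used. Probe sets were named through the array's annotation (34945 with 1 symbol, 932 with several), all 61 keratin probe sets matched RefSeq symbols, and 64 control probe sets were left out of the tests. Signals under 20 were set to 20 and log2-transformed, and probe sets with a group mean of at least 100 were tested with limma 3.58.1 (R 4.3.3, Python 3.11.15), 1 mean per group on all 6 arrays, eBayes with trend (3 residual and 4.46 prior degrees of freedom), with Benjamini-Hochberg adjustment over 17909 probe sets. The design has 2 arrays per group, and their number limits the precision.

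Every keratin gene with a tested probe set was named, and a gene with several was represented in medians of lists and figures by the one with the highest mean. Of other lists, the 2 genes with the highest signal and the 2 with the largest change with vitamin E could be named, besides Trp63 and Apoe. The lists were filament linkers and junction plaque, epithelial transcription factors, differentiated stratified epithelium, other intermediate filaments, mesothelium, lung and airway, liver, thymic epithelium, hair follicle, skeletal muscle, contractile smooth muscle and endothelium. The members and lists were chosen with earlier results of these data known. On simulated data with 100 probe sets changed per fold size, 93, 87 and 97 were recovered at 2-fold in vitamin E-treated against untreated ApoE-/-, untreated ApoE-/- against B6 and vitamin E-treated ApoE-/- against B6 samples, and 12, 17 and 19 unchanged ones of 17909 were called. Alternatives were other normalizations, floors, filters and moderation, fewer samples, the replicate number as a block, 1 probe set per gene and the methods' t-test.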

Additional observations from a re-analysis of the deposited data

How the results depend on the processing

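With 2 arrays per group, single calls were fragile. Between vitamin E-treated and untreated ApoE-/- aortas, 18 keratin probe sets were called, and the count was 10 to 16 with 1 array left out (10 and 11 without the first and the second untreated array) and 7 without a filter, when 61 were tested. Between untreated ApoE-/- and B6 aortas, 15 were called, 13 to 16 with 1 array left out and 10 without a filter. Between vitamin E-treated ApoE-/- aortas and B6 aortas, 11 were called, 8 to 14 with 1 array left out and 7 with 1 probe set per gene, when 16 were tested. The methods' t-test on log2 signals at their thresholds called 5, 1 and 3 keratin probe sets in these comparisons, and 0, 7 and 0 after Benjamini-Hochberg adjustment; on linear signals it called 5, 1 and 2, and 0, 5 and 0. With the replicate number as a block 18, 15 and 10 were called. Samples of the same number did not deviate together (correlations 0.05, 0.05 and -0.10), so that the numbers do not pair the arrays. Median centring moved the median of all probe sets between vitamin E-treated ApoE-/- aortas and B6 aortas by -0.15 and turned the keratin split of 11 higher and 0 lower into 8 and 2, with Krt19 and Krt78 lower. Of 1038 values of single keratin probe sets under an alternative, 943 kept their side of the threshold and, where called, their direction (7 of them were not called in either fit and turned their sign), 83 lost the call, 11 gained one and 1 reversed. The last is the first probe set of Krt4 between vitamin E-treated ApoE-/- aortas and B6 aortas, which was 0.15 without the first and -0.23 without the second vitamin E-treated array, both called, against -0.04 and no call with both arrays. The cause of these changes was not tested.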
